A study of Arabidopsis with 8 samples.

Results

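The 9 SUC sucrose transporters of Arabidopsis (SUC1 to SUC9) were described in leaves of 2 ecotypes with and without salt. Every array probe whose RefSeq accession belongs to 1 of the 9 loci was taken, which gave 14 of the 43572 probes kept on the array and 9 of the 25362 loci that had a probe. SUC2 (AT1G22710) had 3 probes, SUC3 (AT2G02860, also named SUT2), SUC4 (AT1G09960, also named SUT4) and SUC7 (AT1G66570) had 2 each, and SUC1 (AT1G71880), SUC5 (AT1G71890), SUC6 (AT5G43610), SUC8 (AT2G14670) and SUC9 (AT5G06170) had 1 each. A total of 11 probes of 6 genes entered the tests, since they were well above background, as judged by the scanner software, in both arrays of some group. The 3 probes of SUC6, SUC8 and SUC9 were not.

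The groups were Sha with salt, Sha control, Ler with salt and Ler control, each with 2 arrays hybridized with separate biological replicates. Sha (Shakdara) and Ler (Landsberg erecta) are Arabidopsis ecotypes. Seedlings were moved 10 days after sowing to Murashige and Skoog (MS) plates with 100 mM NaCl or without it, and leaves of at least 30 seedlings a plate were pooled 4 days later. The study's methods list sucrose in the MS agar, so all 4 groups grew with sugar supplied. The question was which transcripts differ with salt in each ecotype, and between the ecotypes with and without salt.

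SUC proteins (also called SUTs) carry sucrose across a membrane together with a proton, driven by the gradient that plasma membrane proton pumps set up. In Arabidopsis leaves, sucrose made in the mesophyll leaves the cells through SWEET channels and is taken up by SUC2 into the companion cells of the phloem, which carries it to roots, flowers and seeds. Other members act in sink tissues such as pollen and seeds, or at the vacuole. In bulk leaf RNA, fewer cells of a type and less RNA per cell cannot be told apart.

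Each probe's signal is given as relative signal, the processed signal divided by the 75th percentile of its array, so that 1 is the 75th percentile. Log2 differences come from limma fitted to all 34658 tested probes, with 1 estimate of the spread for the 4 groups. A call needed more than 2-fold and an adjusted p under 0.05, by the method of Benjamini and Hochberg with every tested probe counted. Levels of different probes are not comparable, since each probe has its own brightness. Whether a probe reads its transcript equally well in Sha and in Ler was not tested, which limits every difference between the ecotypes.

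Across all arrays, 72.5% to 79.0% of the features were well above background, and replicate arrays of a group had a median SD of 0.0825 to 0.0943 in log2 signal. The 5 leaf mesophyll markers and the 6 phloem markers were well above background on all 8 arrays. The mesophyll markers summed to a relative signal of 191 to 256 in Sha with salt, 237 to 325 in Sha control, 175 to 206 in Ler with salt and 343 to 515 in Ler control. With salt 1 of the 5 was called lower in Sha and 3 in Ler, where 16.2% and 15.3% of all tested probes were called lower. The salt responses of 3 differed between the ecotypes by a called amount, where 9.09% of all tested probes were called. The 5 root markers were also well above background on all 8 arrays, although the labels give leaf as the tissue, and their summed relative signal was 3.72 to 4.11 in Sha with salt, 13.2 to 13.5 in Sha control, 2.58 to 2.79 in Ler with salt and 10.2 to 12.4 in Ler control. The 5 pollen markers summed to 0.0455 at most. The 5 seed markers summed to 0.462 to 0.548 in Sha with salt, 0.216 to 0.256 in Sha control, 1.3 to 1.38 in Ler with salt and 0.0264 to 0.0301 in Ler control.

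In Sha, salt raised SUC7 and lowered SUC1 and SUC5, and in Ler it raised SUC4 and lowered SUC5. A probe of SUC3 and the dimmer probe of SUC7 rose in both ecotypes, and 1 of the 3 SUC2 probes rose in Sha. The calls numbered 6 of 11 SUC probes in Sha, 4 higher and 2 lower, where 31.0% of all tested probes were called, 14.8% higher and 16.2% lower. In Ler they numbered 5 of 11, 4 higher and 1 lower, where 27.8% of all tested probes were called, 12.4% higher and 15.3% lower. The 11 probes stand for 6 genes, so a gene can count more than once. At the brightest probe of each gene, 3 of 6 genes were called in Sha, where 32.0% of all tested loci were called. In Ler 2 of 6 genes were called in this way, where 28.6% of all tested loci were called. All 11 SUC probes passed the adjusted p in both ecotypes when size was set aside, against 66.0% of all tested probes in Sha and 62.6% in Ler. The median log2 difference over the 11 SUC probes was 0.81 in Sha and 0.84 in Ler, while the median over all tested probes was -0.04 in Sha and -0.10 in Ler. Each slide held the salt and the control array of 1 ecotype and 1 replicate number, and in all 22 pairs of a probe and an ecotype both slides gave the same sign. The slides hold the arrays of the tests above, so the shared signs are a description and no separate test. Of the 11 probes, 10 were well above background on every array, and 1 SUC7 probe was in the test through 3 groups only.

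**Figure D1:**
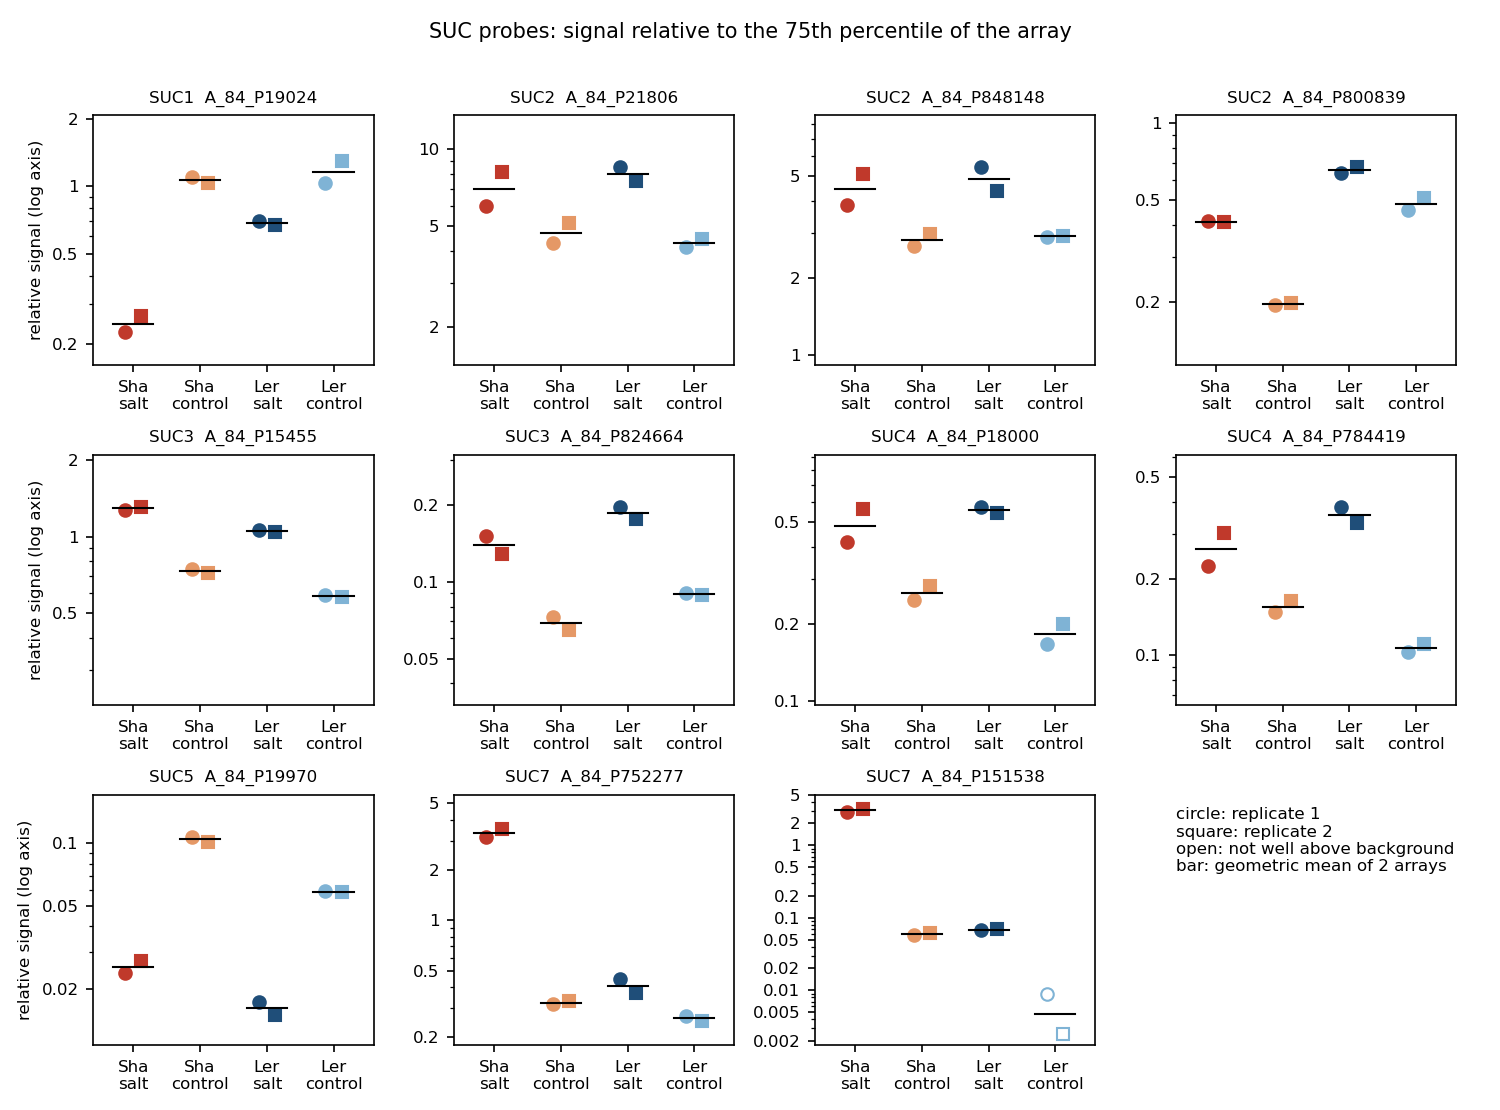
Relative signal (log axis) of the 11 tested SUC probes in Sha with salt, Sha control, Ler with salt and Ler control, with a circle for replicate 1, a square for replicate 2, an open symbol for a spot not well above background and a bar for the geometric mean of the 2 arrays. SUC7 stood highest and SUC1 lowest in Sha with salt, and SUC2, SUC3 and SUC4 were higher with salt in both ecotypes.

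SUC7 showed the largest changes among the SUC genes. It is a close relative of SUC6, and both have been described as genes with aberrant products in the Col ecotype. Its brighter probe, A_84_P752277, had a relative signal of 3.15 and 3.53 in Sha with salt, against 0.316 and 0.329 in Sha control. In Ler the same probe had 0.446 and 0.368 with salt, against 0.267 and 0.252 in the control. Sha leaves with salt stood apart from all other groups, and the other 3 groups lay close together, with Ler salt above both controls. The salt difference was 3.37 ± 0.11 on the log2 scale in Sha (SE, 10.3-fold, limma adjusted p = 3.4e-06). In Ler it was 0.64 ± 0.11 (limma adjusted p = 0.00344), below the 2-fold limit. The salt responses themselves differed by 2.73 ± 0.16 on the log2 scale (interaction term of limma, adjusted p = 6.47e-04).

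The second SUC7 probe, A_84_P151538, had a relative signal of 2.92 and 3.13 in Sha with salt, against 0.0584 and 0.0617 in Sha control. In Ler it had 0.0677 and 0.0700 with salt, against 0.00890 and 0.00246 in the control, where neither array was well above background. Sha salt again stood alone at the top, Sha control and Ler salt lay side by side, and Ler control was lowest with no overlap. The salt difference in Sha was 5.65 ± 0.54 on the log2 scale (SE, 50.4-fold, limma adjusted p = 2.03e-04). In Ler the probe was at least 9.01-fold higher with salt than in the control (limma adjusted p = 0.00121). This bound puts the control at its own signal or, if brighter, at the dimmest probe that was well above background on the array. Every fold given as "at least" holds only under the background correction of the scanner software. With normexp background correction the Ler difference was 1.78 on the log2 scale, below the bound of 3.17, and missed the threshold (limma adjusted p = 0.0521). The difference between the 2 salt responses was 1.77, with a 95% interval of -0.11 to 3.66 (limma adjusted p = 0.144), where the Ler control arrays were not well above background. It was called at 2.70 when Ler control replicate 2 was left out, and was 0.85, below the 2-fold limit, when Ler control replicate 1 was left out. Over the 8 arrays the 2 SUC7 probes correlated at r = 0.93, a description over arrays that share the 4 groups.

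Both SUC7 probes also separated the ecotypes. With salt, Sha exceeded Ler by 3.04 ± 0.11 on the log2 scale at A_84_P752277 (8.22-fold, limma adjusted p = 1.59e-05) and by 5.46 ± 0.54 at A_84_P151538 (43.9-fold, limma adjusted p = 5.65e-04). Without salt the probes parted. Sha was at least 7.85-fold higher than Ler at A_84_P151538 (limma adjusted p = 0.00335), whereas A_84_P752277 gave a log2 difference of 0.31 with a 95% interval of 0.03 to 0.59 (limma adjusted p = 0.07). With normexp the difference at A_84_P151538 was 0.94 on the log2 scale, below the bound of 2.97, and was no longer called. The summed seed markers were also lowest in Ler control, with CRA1, OLEO1 and 2S3 at background there. Their sum was higher in Ler with salt than in Sha with salt, but single markers differed. OLEO2 had a relative signal of 0.244 and 0.283 in Sha with salt, against 0.144 and 0.141 in Ler with salt. LEC2 was highest in Ler control, at 0.0136 and 0.0146. The part of seed transcripts in the SUC7 result was not tested. Within the day on which replicate 1 of all 4 groups was scanned, Sha exceeded Ler with salt by 2.82 at A_84_P752277 and by 5.43 at A_84_P151538.

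SUC6, SUC8 and SUC9, close relatives of SUC7, gave no usable signal. SUC9 is a high-affinity carrier known from flowers, and SUC8 is known from floral tissue. Probes A_84_P140799 (SUC6), A_84_P21998 (SUC8) and A_84_P18666 (SUC9) were not well above background on any of the 8 arrays, with a relative signal of 0.000625 to 0.00271. They stayed there in Sha with salt, where both SUC7 probes were brightest. Whether a probe of 1 SUC gene also binds transcripts of another was not tested, since probe sequences were not used here.

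SUC1 moved the opposite way to SUC7. SUC1 is a plasma membrane symporter known from pollen and from roots. Its probe, A_84_P19024, had a relative signal of 0.225 and 0.265 in Sha with salt, against 1.1 and 1.04 in Sha control. Its relative signal in Ler was 0.700 and 0.674 with salt, against 1.04 and 1.30 in the control. Sha with salt was lowest, Ler with salt was intermediate and the controls of both ecotypes overlapped. The salt difference was -2.13 ± 0.13 on the log2 scale in Sha (SE, 4.38-fold lower, limma adjusted p = 3.26e-05). It was -0.76 ± 0.13 in Ler (limma adjusted p = 0.00318), below the 2-fold limit. The salt responses differed by -1.37 ± 0.19 (interaction term of limma, adjusted p = 0.00634). With salt, the log2 difference of Sha against Ler was -1.49 ± 0.13 (limma adjusted p = 3.68e-04), and the value within scan day 1 was -1.64. Without salt the difference was -0.13, with a 95% interval of -0.45 to 0.20 (limma adjusted p = 0.468).

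SUC5 fell in both ecotypes. SUC5 lies next to SUC1 in the genome and is known from the endosperm of the seed, where it carries sucrose and biotin. Probe A_84_P19970 had a relative signal of 0.0239 and 0.0273 in Sha with salt, against 0.107 and 0.102 in Sha control. Ler leaves had 0.0174 and 0.0151 with salt, against 0.0590 and 0.0584 in the control. The salt arrays lay below the control arrays in each ecotype, and Sha lay above Ler in each condition. The salt difference was -2.04 ± 0.10 on the log2 scale in Sha (SE, 4.10-fold lower, limma adjusted p = 1.4e-05) and -1.86 ± 0.10 in Ler (3.62-fold lower, limma adjusted p = 2.4e-05). The difference between these responses was -0.18, with a 95% interval of -0.54 to 0.18 (limma adjusted p = 0.394). Sha exceeded Ler by 0.65 ± 0.10 with salt and by 0.84 ± 0.10 without salt on the log2 scale (limma adjusted p = 0.00345 and 0.00165), both below the 2-fold limit. This is a dim probe, and with normexp correction neither salt difference was called (-1.23 in Sha and -0.33 in Ler). The difference of Sha against Ler with salt turned to -0.56 with normexp (limma adjusted p = 0.592). No direction is therefore given for SUC5 between the ecotypes with salt.

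Root markers were lower with salt beside SUC1 and SUC5. All 5 were called lower in Sha, with log2 differences of -3.22 to -1.19, and 4 of 5 were called lower in Ler, with -2.91 to -1.42. Of all tested probes, 16.2% were called lower in Sha and 15.3% in Ler. EXPA7 had -0.85 in Ler and was not called. The salt responses of EXPA7, an expansin of root hair cells, and PRP3, a cell wall protein of root hairs, were called lower in Sha than in Ler, as was that of SUC1, with differences of -1.67 and -1.59. PHT1;1, a phosphate transporter of roots, differed the other way at 1.72, and RCI3 and COBL9 were not called (-0.70 and -0.91). The part of root tissue in the SUC1 and SUC5 results was not tested.

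**Figure D2:**
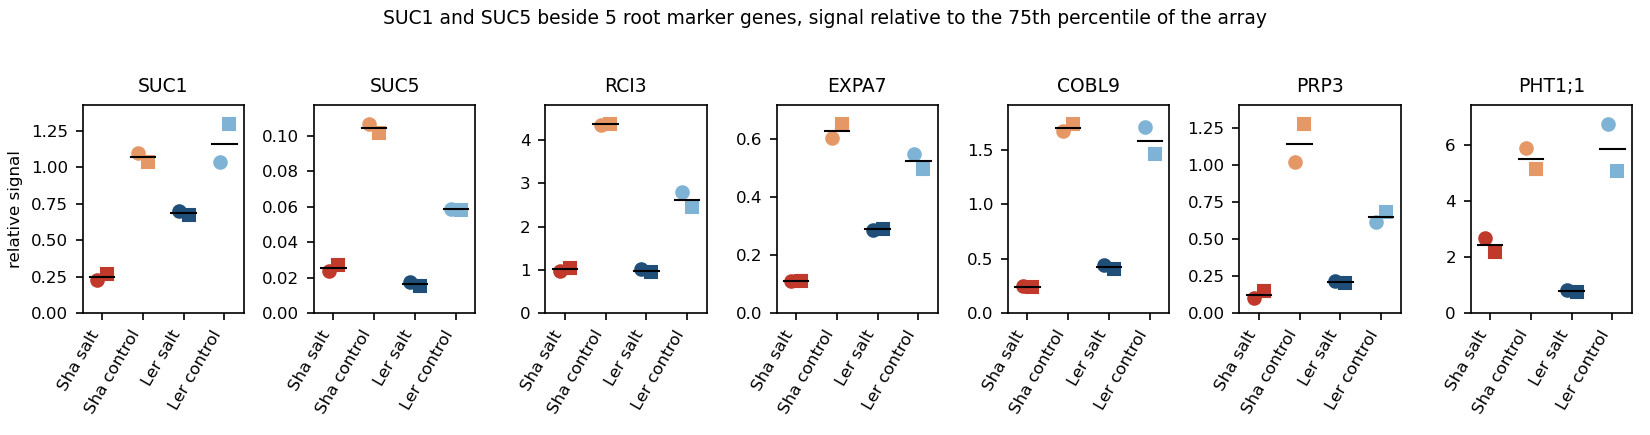
Relative signal (linear axis) of SUC1, SUC5 and the 5 root markers RCI3, EXPA7, COBL9, PRP3 and PHT1;1 in Sha with salt, Sha control, Ler with salt and Ler control, with a circle for replicate 1, a square for replicate 2 and a bar for the geometric mean. The salt arrays lie below the control arrays of the same ecotype in every panel, and SUC1 in Sha with salt (0.225 and 0.265) lies below Ler with salt (0.700 and 0.674).

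SUC4 rose with salt in Ler at both of its probes and was higher by less than 2-fold in Sha. SUC4 sits in the vacuolar membrane and is known to release sucrose from the vacuole. Probe A_84_P18000 had a relative signal of 0.418 and 0.562 in Sha with salt, against 0.249 and 0.282 in Sha control. In Ler it had 0.576 and 0.543 with salt, against 0.167 and 0.200 in the control. Salt arrays lay above control arrays without overlap, and the salt arrays of the ecotypes overlapped. The log2 salt difference was 0.87 ± 0.17 in Sha (limma adjusted p = 0.00432) and 1.62 ± 0.17 in Ler (SE, 3.06-fold, limma adjusted p = 3.1e-04). The other probe, A_84_P784419, gave 0.75 ± 0.16 in Sha and 1.74 ± 0.16 in Ler (3.33-fold, limma adjusted p = 1.91e-04), and both probes correlated at r = 0.989 over the 8 arrays.

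The smaller SUC4 response of Sha did not pass the call in the interaction test. The salt responses differed by -0.74 at A_84_P18000, with a 95% interval of -1.32 to -0.17 (limma adjusted p = 0.0681), and by -0.99 at A_84_P784419 (limma adjusted p = 0.0282), just inside the 2-fold limit. The second value was called at -1.20 when Sha salt replicate 2 was left out, and the Sha response at A_84_P18000 was called at 1.08 without Sha salt replicate 1. With salt the difference of Sha and Ler was -0.21 at A_84_P18000, with a 95% interval of -0.61 to 0.20, and -0.45 at A_84_P784419, with an interval of -0.84 to -0.06 (limma adjusted p = 0.354 and 0.065). In the controls Sha exceeded Ler by 0.54 at both probes (limma adjusted p = 0.0433 and 0.0377), below the 2-fold limit.

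SUC3 was higher with salt in both ecotypes. It is a larger member of the family with low affinity, known from sieve elements and from sink cells. Probe A_84_P15455 had a relative signal of 1.27 and 1.31 in Sha with salt, against 0.745 and 0.723 in Sha control. Its relative signal in Ler was 1.06 and 1.04 with salt, against 0.590 and 0.581 in the control. The 4 groups did not overlap, with Sha above Ler in each condition. The log2 salt difference was 0.81 ± 0.06 in Sha and 0.84 ± 0.06 in Ler (limma adjusted p = 8.18e-05 and 8.42e-05), and the difference between them was -0.02, with a 95% interval of -0.24 to 0.20. The dimmer probe, A_84_P824664, had 0.151 and 0.129 in Sha with salt, against 0.0730 and 0.0649 in Sha control. Ler leaves had 0.197 and 0.176 with salt, against 0.0902 and 0.0890 in the control. Here too the salt arrays lay above the controls, but Sha lay below Ler. Its salt difference was 1.02 ± 0.11 in Sha and 1.06 ± 0.11 in Ler (limma adjusted p = 3.74e-04 and 3.58e-04), called but close to the limit. It fell short of 2-fold with normexp (0.93 in Sha and 0.99 in Ler) and when Sha salt replicate 1 (0.91), Sha control replicate 2 (0.94) or Ler salt replicate 1 (0.97) was left out.

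The probes of SUC3 disagreed on the ecotype difference. At A_84_P15455 Sha exceeded Ler by 0.30 with salt and by 0.33 without salt on the log2 scale (limma adjusted p = 0.0107 and 0.00949). At A_84_P824664 the differences were -0.42 with salt and -0.38 without salt (limma adjusted p = 0.0266 and 0.0376). All 4 were below the 2-fold limit, so no direction is given for SUC3 between the ecotypes.

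SUC2, the main phloem loader, was higher with salt by less than 2-fold at its brighter probes. Probe A_84_P21806 had a relative signal of 6.01 and 8.13 in Sha with salt, against 4.27 and 5.13 in Sha control. In Ler it had 8.53 and 7.50 with salt, against 4.13 and 4.45 in the control. Salt and control arrays did not overlap, and the ecotypes overlapped in both conditions. The log2 salt difference was 0.58 ± 0.17 in Sha (limma adjusted p = 0.0252) and 0.90 ± 0.17 in Ler (limma adjusted p = 0.00462). Probe A_84_P848148, which followed it at r = 0.978 over the 8 arrays, gave 0.66 ± 0.17 in Sha and 0.75 ± 0.17 in Ler. Neither probe differed between the ecotypes by a called amount, and the 95% intervals with salt were -0.62 to 0.23 at A_84_P21806 and -0.54 to 0.27 at A_84_P848148.

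The third SUC2 probe gave another picture. A_84_P800839 had a relative signal of 0.413 and 0.410 in Sha with salt, against 0.194 and 0.198 in Sha control. Its relative signal in Ler was 0.637 and 0.675 with salt, against 0.456 and 0.511 in the control. All 4 groups stood apart, with Sha below Ler in each condition. Its salt difference was 1.07 ± 0.08 in Sha (SE, limma adjusted p = 7.1e-05) and 0.44 ± 0.08 in Ler (limma adjusted p = 0.00383), and the responses differed by 0.63 ± 0.11 (interaction term of limma, adjusted p = 0.014), below the 2-fold limit. With salt the log2 difference of Sha against Ler was -0.67 ± 0.08 (limma adjusted p = 0.00117), and without salt it was -1.30 ± 0.08 (2.47-fold lower in Sha, limma adjusted p = 1.07e-04). This probe correlated with the other SUC2 probes at r = 0.523 and 0.617 over the 8 arrays. What it reads beside them, and whether it reads the same transcript in both ecotypes, was not tested, since probe sequences were not used here. Of the 6 phloem markers, 0 were called with salt in Sha and 1, AHA3, was called higher in Ler. Of all tested probes, 31.0% were called in Sha and 27.8% in Ler.

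**Figure D3:**
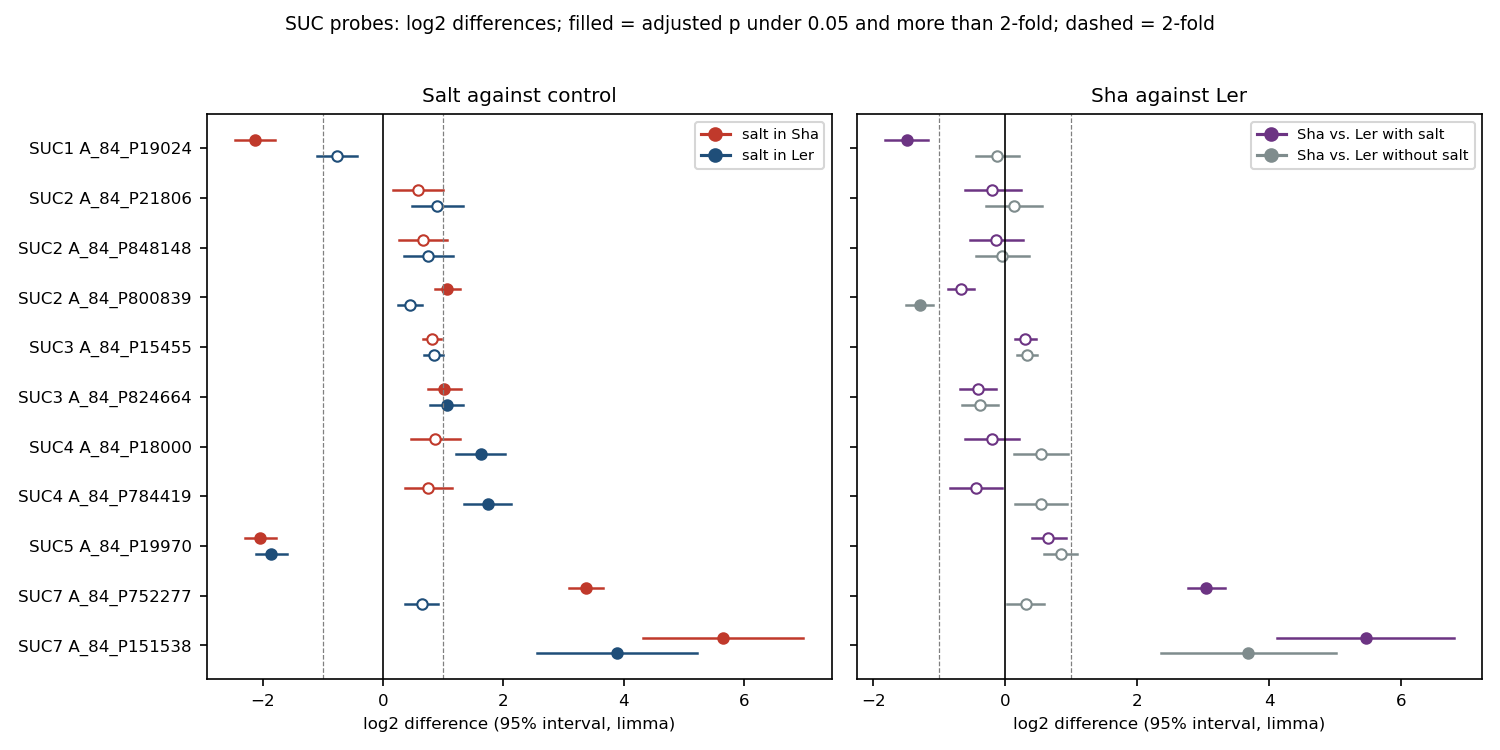
Log2 differences (horizontal axis) with 95% intervals from limma for the 11 tested SUC probes, for salt against control in Sha and Ler on the left and for Sha against Ler with and without salt on the right. Filled points were called and dashed lines mark 2-fold. Both SUC7 probes lie far to the right for salt in Sha and for Sha against Ler with salt, SUC1 lies to the left in both, and the SUC2 and SUC3 probes of 1 gene part between the ecotypes.

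Between the ecotypes, 3 of the 11 SUC probes were called with salt, both SUC7 probes higher in Sha and SUC1 lower, where 14.4% of all tested probes were called. Without salt 2 were called, a SUC7 probe higher in Sha and a SUC2 probe lower, where 13.6% of all tested probes were called. The salt response differed by a called amount at 2 of 11 probes, higher in Sha for SUC7 and lower for SUC1, where 9.09% of all tested probes were called. With size set aside, 7 SUC probes passed the adjusted p between the ecotypes with salt, against 45.1% of all tested probes, and 7 without salt, against 43.7%. For the difference between the salt responses 4 passed, against 24.2%. At the brightest probe of each gene, 2 of 6 genes were called between the ecotypes with salt and 0 without salt. For the difference between the salt responses 2 of 6 were called. Of all tested loci, 14.2%, 12.0% and 8.76% were called in the same order.

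Over the 8 arrays SUC1 and the brighter SUC7 probe ran opposite to each other (r = -0.973). The genes whose brightest probe followed each SUC gene most closely, of 19307 loci well above background on all arrays, are named as a description of arrays that share 4 groups. For SUC1 they were GA20OX2, a gibberellin biosynthesis enzyme, at r = 0.9957, YSL4 at 0.9947 and AT3G52900 at 0.9942. SUC7 was followed most closely by AT1G36380 at r = 0.9967, TKI1 at 0.9939 and PIP5K5 at 0.9938. For SUC5 the closest were AT1G28400 at 0.9985, AT3G05350 at 0.9984 and OPT7 at 0.9983. SUC4 had RCP1 at 0.9974, LCBK2 at 0.9971 and NAC001 at 0.9951. The closest to SUC3 were AT4G11350 at 0.999, the zinc finger factor gene ZAT6 at 0.9977 and AT3G51750 at 0.9972. SUC2 had lower values, with GOX3 at 0.9837, NTT1 at 0.9833 and TUA1 at 0.9831.

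The genes that act around the SUC carriers were read from 6 lists of 57 loci, of which 52 were tested at their brightest probe. With salt in Sha 15 were called higher and 11 lower, where 32.0% of all 21507 loci were called, 14.1% higher and 17.9% lower. With salt in Ler 16 were called higher and 7 lower, where 28.6% of all loci were called, 13.1% higher and 15.6% lower. The median log2 difference over the 52 loci was 0.26 in Sha and 0.20 in Ler, against -0.09 and -0.08 over all loci. The lists were chosen with earlier results of these data known.

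Among the SWEET channels, which let sucrose or hexoses pass down their gradient, 7 of 15 were called higher and 3 lower in Sha, and 6 higher and 1 lower in Ler. The lower call of SWEET5 in Sha rests on dim signals, with a bound of 1.4-fold, under the 2-fold limit. SWEET15, a gene known for its rise in senescing leaves, had a relative signal of 76.7 and 59.3 in Sha with salt, against 0.332 and 0.342 in Sha control. Ler leaves had 50.6 and 44.5 with salt, against 1.01 and 0.916 in the control. SWEET15 rose in both ecotypes, by 7.64 in Sha and 5.62 in Ler on the log2 scale (limma adjusted p = 7.48e-07 and 1.72e-06). SWEET3 was at least 6.89-fold lower with salt in Sha. SWEET16, a vacuolar channel, had log2 differences of -3.04 in Sha and -2.58 in Ler, both called lower. SWEET11 and SWEET12, which release sucrose beside the phloem for SUC2 to load, were called in neither ecotype at their brightest probes, where their log2 differences were -0.09 and 0.20 in Sha and -0.91 and 0.10 in Ler. The second SWEET11 probe, A_84_P813422, had a relative signal of 0.833 and 0.747 in Sha with salt, against 0.690 and 0.755 in Sha control. In Ler this probe had 0.641 and 0.630 with salt, against 1.43 and 1.45 in the control. Ler control stood apart at the top, and the probe was called lower in Ler with a log2 difference of -1.18 (limma adjusted p = 6.68e-05), against 0.13 in Sha (limma adjusted p = 0.226). Its salt responses differed by 1.31, Sha minus Ler (interaction term of limma, adjusted p = 0.00205). Of the 20 loci of the lists with more than 1 tested probe, 5 had probes that differed in their call with salt in Sha and 4 in Ler.

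The proton pumps that power SUC carriers were mixed, with 2 of 10 called higher and 2 lower in Sha and 3 higher and 2 lower in Ler. AHA3, the pump of companion cells, had a relative signal of 6.33 and 7.59 in Sha with salt, against 5.58 and 6.13 in Sha control. In Ler AHA3 had 14.7 and 12.9 with salt, against 3.10 and 3.67 in the control. Ler with salt stood apart from the other groups, and AHA3 rose by 2.02 in Ler (limma adjusted p = 5.37e-05), against a difference of 0.25 in Sha (limma adjusted p = 0.163). The responses differed by -1.78 (interaction term of limma, adjusted p = 0.00331), while no probe of SUC2 had a called difference between the responses. AHA9 was at least 5.90-fold higher with salt in Sha and at least 2.85-fold higher in Ler, and AHA7 had log2 differences of -2.75 in Sha and -1.45 in Ler.

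Of 8 genes of sucrose synthesis, 2 were called higher and 2 lower in Sha, and 2 higher and 1 lower in Ler. The sucrose phosphate synthase gene SPS2F had log2 differences of 2.26 in Sha and 2.29 in Ler, and SPS4F had -2.07 and -2.52. Of 6 sucrose synthases, which cleave sucrose reversibly, 2 were called higher in Sha and 3 in Ler, none lower, with SUS3 at 4.22 in Sha and 3.58 in Ler. Among 8 invertases, which split sucrose into glucose and fructose, 1 was called higher and 2 lower in Sha and 1 higher and 1 lower in Ler. CWINV5 had 4.22 in Sha and 2.97 in Ler, and CWINV6 had -2.12 and -2.58. Of 5 tonoplast sugar carriers, 1 was called higher and 2 lower in each ecotype, with 1 of the lower calls in Ler made on signals not well above background. TMT2 had 2.06 in Sha and 1.69 in Ler, and TMT3 was at least 2.07-fold lower in Sha. TMT3 is the carrier that was not well above background on any Ler array, so its direction in Ler is not read here.

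**Figure D4:**
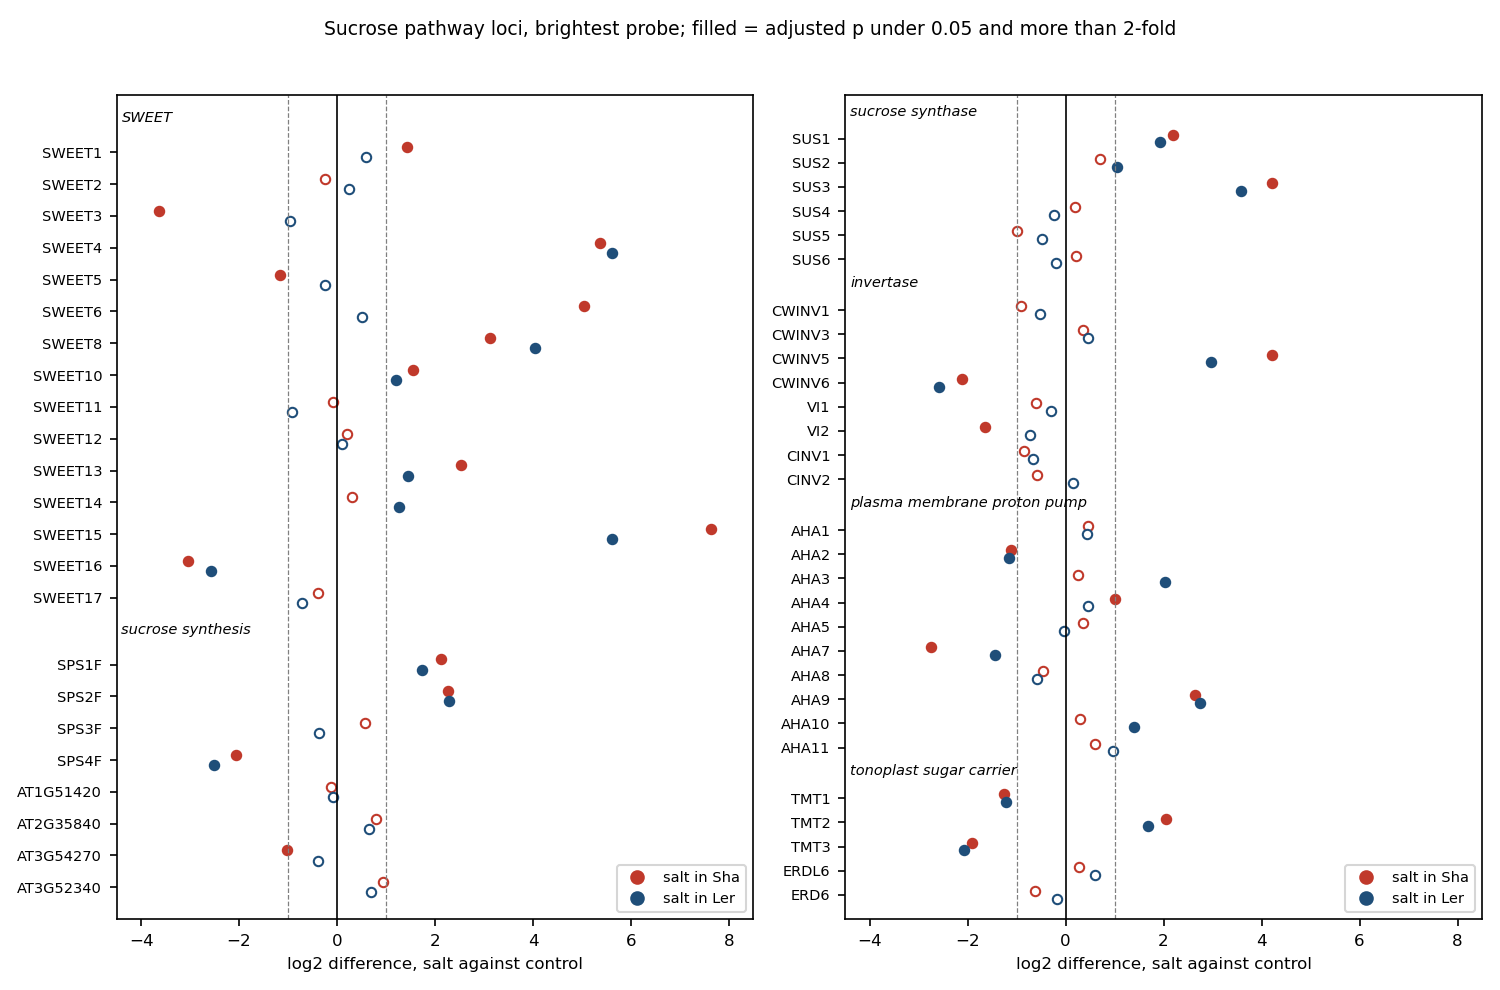
Log2 difference of salt against control (horizontal axis) in Sha and Ler for the 52 tested loci of the 6 sucrose lists at their brightest probe, with filled points for calls and dashed lines at 2-fold. SWEET15 lies farthest to the right (7.64 in Sha and 5.62 in Ler), and SWEET11 and SWEET12 lie inside the 2-fold lines in both ecotypes at these probes.

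Between the ecotypes, 9 of the 52 loci were called with salt, where 14.2% of all loci were called. Without salt 9 were called, where 12.0% of all loci were called. SWEET6, among these, was not well above background in either control group. The salt response differed by a called amount at 8 loci, where 8.76% of all loci were called.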

How the data were processed

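RNA from leaves was labeled with Cy3 and hybridized to 1-color Agilent-021169 Arabidopsis 4 arrays, 8 in all. The authors deposited each spot's processed intensity, in arbitrary units, which Agilent Feature Extraction 10.7.1.1 (per the file headers) had corrected for background and for trends within each array. Arrays were not scaled to each other. A table of the whole series repeats these deposited intensity values. With 2 arrays a group, precision is limited by their number.

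Outlier flags removed 31 of the 43603 probes that were no controls. Signals were divided by the 75th percentile of their array and turned into log2 values. The 34658 probes that were well above background in both arrays of some group were analysed probe by probe in limma (version 3.58.1, R 4.3.3). The model had the 4 groups and no covariate, which left 4 residual degrees of freedom, and p-values of a comparison were adjusted together by the Benjamini-Hochberg method. The study names GeneSpring, a 2-fold limit and p-value limits, but not the test that gave the p-values. Python 3.11.15 with pandas 2.3.3, numpy 2.4.6 and matplotlib 3.10.9 made the tables and plots. The code was tested on simulated data.

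Loci were assigned through each probe's RefSeq accession. The array design uses another annotation build than the reference table, so no coordinates are given, and probe and gene sequences were not analysed here. All SUC probes are named. For each pathway list the called loci with the largest rise and the largest fall in a salt comparison are named, with SWEET11, SWEET12 and AHA3, and the 3 loci most like each SUC gene. Others were named after their values were seen. The members, lists and tests were chosen with earlier results of these data known.

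Alternatives were quantile and median scaling, normexp (offset 50) on median spot signals, no background filter, a filter on all 8 arrays, fits of 4 arrays at a time, robust moderation with an intensity trend, the table of the whole series, other thresholds, a call needed at all probes of a locus, blocks for replicate number, slide and scan day (statmod 1.5.0 for the random block), and each array left out. The Col arrays were not used here.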

Additional observations from a re-analysis of the deposited data

Results flagged for a closer look

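Results in which the salt responses of Sha and Ler differed by a called amount in the interaction test of limma are given here as the difference between the log2 responses, Sha minus Ler. SUC1 differed by -1.37 at probe A_84_P19024, with a fall in Sha and a difference below the 2-fold limit in Ler. SUC7 differed by 2.73 at probe A_84_P752277, with a rise in Sha and a difference below the 2-fold limit in Ler.

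Among the SWEET channels, SWEET15 differed by 2.02 and SWEET13 by 1.09, with both called higher in each ecotype. SWEET6 was well above background only in Sha with salt, where it was at least 6.79-fold higher than in Sha control, and SWEET3 only in Sha control. Their fitted differences of 4.53 and -2.67 rest on signals not well above background in the other 3 groups, so they give no size of a difference between the ecotypes. CWINV5, a cell wall invertase gene, differed by 1.25 and was called higher in each ecotype.

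Among the proton pumps, AHA3 differed by -1.78 and AHA10 by -1.09, both with a called rise in Ler and none in Sha. AHA7 differed by -1.31, with a called fall in each ecotype. Groups of 2 arrays are too small for a test of outlying arrays.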

How the results depend on the processing

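Other thresholds, filters, moderation, fits of 4 arrays and the blocks for replicate number and slide leave a probe's log2 difference as it was. The table of the whole series repeats the same values. A direction could turn only with other scaling, normexp, scan day as a block or an array left out. Leaving out an array of a group that was not compared could not turn it either. The 18 called SUC results kept their direction in all 372 values over these settings, many of which could not turn it. Of these 9 lost the call, all named in the report with their values: both SUC5 salt responses, SUC7 probe A_84_P151538 in Ler with salt and between the controls, and SUC3 probe A_84_P824664. With normexp the SUC calls numbered 2 for salt in Ler and 1 for Sha against Ler without salt, and the pathway calls 17 for salt in Sha and 4 for the difference between responses. For salt in Sha, SUC5 and SUC3 probe A_84_P824664 lost the call with normexp. The difference between responses stayed called at SUC1 (-1.33, limma adjusted p = 0.0464) and SUC7 probe A_84_P752277 (2.61, limma adjusted p = 0.0205). Requiring all 8 arrays above background left 1 SUC call for Sha against Ler without salt, since SUC7 probe A_84_P151538 was then left out. With no fold limit the SUC calls numbered 11 for salt in Sha, 11 for salt in Ler, 7 for Sha against Ler with salt, 7 without salt and 4 for the difference between responses, and the pathway calls 43, 41, 32, 24 and 23 in the same order.

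Leaving out 1 array at a time, the SUC calls ranged from 5 to 6 for salt in Sha, 4 to 5 for salt in Ler, 3 to 3 for Sha against Ler with salt, 2 to 2 without salt and 2 to 3 for the difference between responses. The pathway calls ranged from 25 to 27, 23 to 24, 7 to 11, 8 to 12 and 7 to 10 in the same order. Signs turned only where no difference was called. SUC3 probe A_84_P15455 gave 0.0090 for the difference between responses with median scaling. With normexp SUC2 probe A_84_P848148 gave 0.016 without salt and SUC5 gave -0.56 with salt between the ecotypes. SUC2 probe A_84_P21806 gave -0.068 between the controls with scan day as a block. The other turns came from leaving out 1 array, over which the Sha against Ler difference with salt ranged from -0.41 to 0.023 at SUC2 probe A_84_P21806, from -0.34 to 0.063 at A_84_P848148 and from -0.42 to 0.0057 at SUC4 probe A_84_P18000. Without salt it ranged from -0.0056 to 0.26 at A_84_P21806, from -0.13 to 0.028 at A_84_P848148 and from -0.29 to 0.034 at SUC1. The difference between responses ranged from -0.29 to 0.11 at A_84_P848148 and from -0.15 to 0.077 at A_84_P824664.

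The labels do not say what a replicate number marks. Within an ecotype it coincided with the slide, where deviations from the group means correlated at 0.47 in Sha and 0.208 in Ler, against 0.0579 to 0.261 across ecotypes. With the replicate number as a block the SUC calls were 6 for salt in Sha, 5 for salt in Ler, 3 and 2 between the ecotypes with and without salt, and 2 for the difference between responses, the same counts as without it. The slide block gave the same counts too. Each slide held 1 ecotype, so every difference between the ecotypes is also a difference between slides. Replicate 1 of all 4 groups was scanned on day 1, and replicate 2 on day 2 for Sha and day 3 for Ler. The fit of only the 4 arrays compared was not possible for the difference between responses. Normexp moved the median log2 difference of all probes to 0.14 for salt in Ler, against -0.10, and the share of calls that were higher in Sha with salt to 25.3%, against 46.3%. Quantile scaling moved that share without salt to 50.5%, against 40.2%, and for the difference between responses to 45.0%, against 55.6%. Dim probes limit SUC5 and SUC7 probe A_84_P151538, and SUC6, SUC8 and SUC9 could not be measured.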

Other observations

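Neighbours of the SUC loci were read after their values were seen. RAS1, a gene named for its response to abscisic acid and salt, lies next to SUC4. RAS1 was well above background only on the Sha salt arrays, where it was at least 23.5-fold higher than in Sha control and at least 11.6-fold higher than in Ler with salt (limma adjusted p = 5.51e-04 and 0.00688). SUC7 lies between WRKY64 and SAG24. WRKY64 was well above background on both arrays only in Ler with salt, where it was at least 4.51-fold higher than in Ler control, and SAG24 had log2 salt differences of 0.19 in Sha and 0.14 in Ler. Neither neighbour had the pattern of SUC7, which was highest in Sha with salt.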
